A study of Homo sapiens with 6 samples.

Results

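Amino acid transporters of the plasma membrane were described in 3 lines derived from HEK293 cells, which come from human embryonic kidney. The set lists 10 genes, and a gene was taken where an array row carried it as its only symbol in the platform's annotation. On that rule 9 of the 10 genes were measured, on 10 of the 15492 rows of the table, since SLC1A5 has 2 rows. SLC7A6, a light chain that exchanges basic for neutral amino acids, had 0 such rows and is not described, because its 2 rows also carry SLC7A6OS.

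The samples were the wtAPE1 line, which carries an inducible wild-type APE1, the ubAPE1 line, which carries an inducible fusion of ubiquitin to APE1, and the vector line, which carries the empty pcDNA-FRT vector. Each line was sampled with doxycycline, at 2 µg per ml for 16 h, and without it. Doxycycline switches on tet-on transgenes. APE1, encoded by APEX1, cuts DNA at abasic sites during base excision repair. All 6 groups shared DMEM/F12 medium with 10% serum and 1% L-glutamine, and puromycin at 1 µg per ml. Per the labels, each group is 1 column that the authors averaged from 3 biological replicates, so the columns do not show how replicates spread. Each construct is represented by 1 line, and the labels do not say whether a line is 1 clone, so construct and line cannot be told apart. In such bulk profiles a different mix of cells and a different level per cell cannot be told apart either.

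Amino acid transporters fall into families by the partner ions and substrates they use. SLC3A2 (CD98, 4F2hc) is the heavy chain that carries light chains of the SLC7 family to the cell surface, among them SLC7A5 for large neutral amino acids and SLC7A11 for cystine. ATF4, a transcription factor made when amino acids run short or other stresses phosphorylate eIF2α, raises transcription of many of these genes through a composite C/EBP-ATF response element. From textbook knowledge, 8 of the measured genes are ATF4-responsive: SLC7A11, SLC7A5, SLC3A2, SLC7A1, SLC1A4, SLC1A5, SLC38A2 and SLC6A9. SLC38A1 was not placed in that group.

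Promoter windows from RefSeq (GRCh38.p14, 250 bases before to 50 after an annotated start) were available for 8 of the 9 genes, all but SLC7A11, in 14 windows. The core of the C/EBP-ATF element, TGATGNAA on either strand, was found in 5 of the 14 windows, 1 window in each of 5 genes, against 3.62% of all 35116 windows. The stretches are shown because they are the places where these genes carry the letters of that element. Capitals mark the match, which overlapped no match to the second motif searched, and positions are counted from the annotated start without a 0.
SLC1A4, chr2:64989300-64989399, plus strand, match from -7 to 1: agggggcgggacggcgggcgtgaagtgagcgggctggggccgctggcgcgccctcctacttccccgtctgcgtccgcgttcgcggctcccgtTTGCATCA
SLC1A5, chr19:46784858-46784957, minus strand, match from -97 to -90: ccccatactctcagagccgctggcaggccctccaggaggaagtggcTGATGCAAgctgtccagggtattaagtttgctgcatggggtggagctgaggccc
SLC38A1, chr12:46266502-46266531, minus strand, match from -4 to 4: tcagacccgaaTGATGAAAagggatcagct
SLC7A1, chr13:29595663-29595692, minus strand, match from 8 to 15: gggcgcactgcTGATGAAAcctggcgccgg
SLC3A2, chr11:62881719-62881748, plus strand, match from 38 to 45: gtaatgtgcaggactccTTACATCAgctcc
SLC1A4 and SLC1A5 hold the same letters, TGATGCAA, read on opposite strands relative to the gene. SLC38A1, outside the ATF4-responsive group, holds a match as well. The second motif was TGACNNNGC, the core of the antioxidant response element bound by NRF2, which also acts on SLC7A11. It was found on either strand in 4 of the 14 windows, in SLC3A2, SLC7A1, SLC7A5 and SLC1A5, against 13.35% of all windows. A match describes letters and not a bound site, and which annotated start these cells use was not tested.

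The values are log2 levels per row. APEX1, as the check of the labels, had 10.67 log2 with doxycycline and 9.50 without in wtAPE1 cells, 10.58 and 9.82 in ubAPE1 cells, and 9.66 and 9.54 in vector cells. Column medians lay between 6.56 and 6.81 log2 over the 11619 rows kept for analysis (mean level of at least 5.03 log2, the 25th percentile of row means). All 10 transporter rows passed that filter. The median row differed from its vector value by -0.15 log2 in wtAPE1 and by -0.08 in ubAPE1 cells, so the differences printed are relative to the median row, while each adjusted p tests the difference in the deposited values. Line differences were tested with limma over both doxycycline states, with cell line and doxycycline as additive terms and 2 residual degrees of freedom. P-values were adjusted by Benjamini-Hochberg across the 11619 rows and called under 0.05. A line's samples with and without doxycycline take the place of replicates, and p-values thus measure how even a difference was over both states. Levels of different rows were not set against each other, since each row has its own probes.

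The transporters lay lower in both APE1 lines than in vector cells. Relative to the median row, all 9 genes were below 0 in wtAPE1 cells, with a median difference of -0.55 log2 and a range from -1.22 to -0.20, where the median of all rows is 0 and 95% of them lay between -0.68 and 0.46. In the ubAPE1 line all 9 were below 0 too, with a median of -0.44 and a range from -1.14 to -0.13, while 95% of all rows lay between -0.66 and 0.40. SLC1A4 passed the test in both lines and SLC7A11 in wtAPE1 cells. These are 2 of 9 genes lower in wtAPE1 cells, where 2.01% of all rows were called lower, and 1 of 9 in ubAPE1 cells, where 1.31% were. Called higher were 0 of 9 in both, against 0.103% of all rows in wtAPE1 cells and 0.0861% in ubAPE1 cells. Fitted without the ubAPE1 line, 7 of 9 genes passed as lower in wtAPE1 cells, against 8.08% of all rows, the exceptions being SLC1A5 and SLC38A2. Fitted without the wtAPE1 line, 3 of 9 passed in ubAPE1 cells (SLC1A4, SLC7A11 and SLC6A9), against 2.63%. Both of these fits rest on fewer columns and fewer residual degrees of freedom, and in both the calls rose over all rows too.

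The size of the shift differed among the genes. At least 1.5-fold lower were 3 of 9 in wtAPE1 cells (SLC1A4, SLC7A11 and SLC38A1), against 3.64% of all rows, and 3 of 9 in ubAPE1 cells (SLC1A4, SLC7A11 and SLC6A9), against 3.46%. An unadjusted limma p under 0.05 was reached by 8 of 9 in wtAPE1 cells, against 15.8% of all rows that were lower at that level, and by 8 of 9 in ubAPE1 cells, against 9.97%. SLC1A5 was the exception in both. As deposited, both wtAPE1 samples lay below both vector samples for 9 of 9 genes, against 47.9% of all rows, and both ubAPE1 samples for 9 of 9, against 28%. Relative to the column medians, both wtAPE1 samples lay below both vector samples for 9 of 9 genes, against 25.8% of all rows, and both ubAPE1 samples did so for 8 of 9, against 18.5%. The gene where they overlapped was SLC1A5. The wtAPE1 and ubAPE1 differences share the same 2 vector samples, so they are not independent of each other. The genes were chosen with earlier results of these data known, so these counts describe the set and do not test it.

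**Figure D1:**
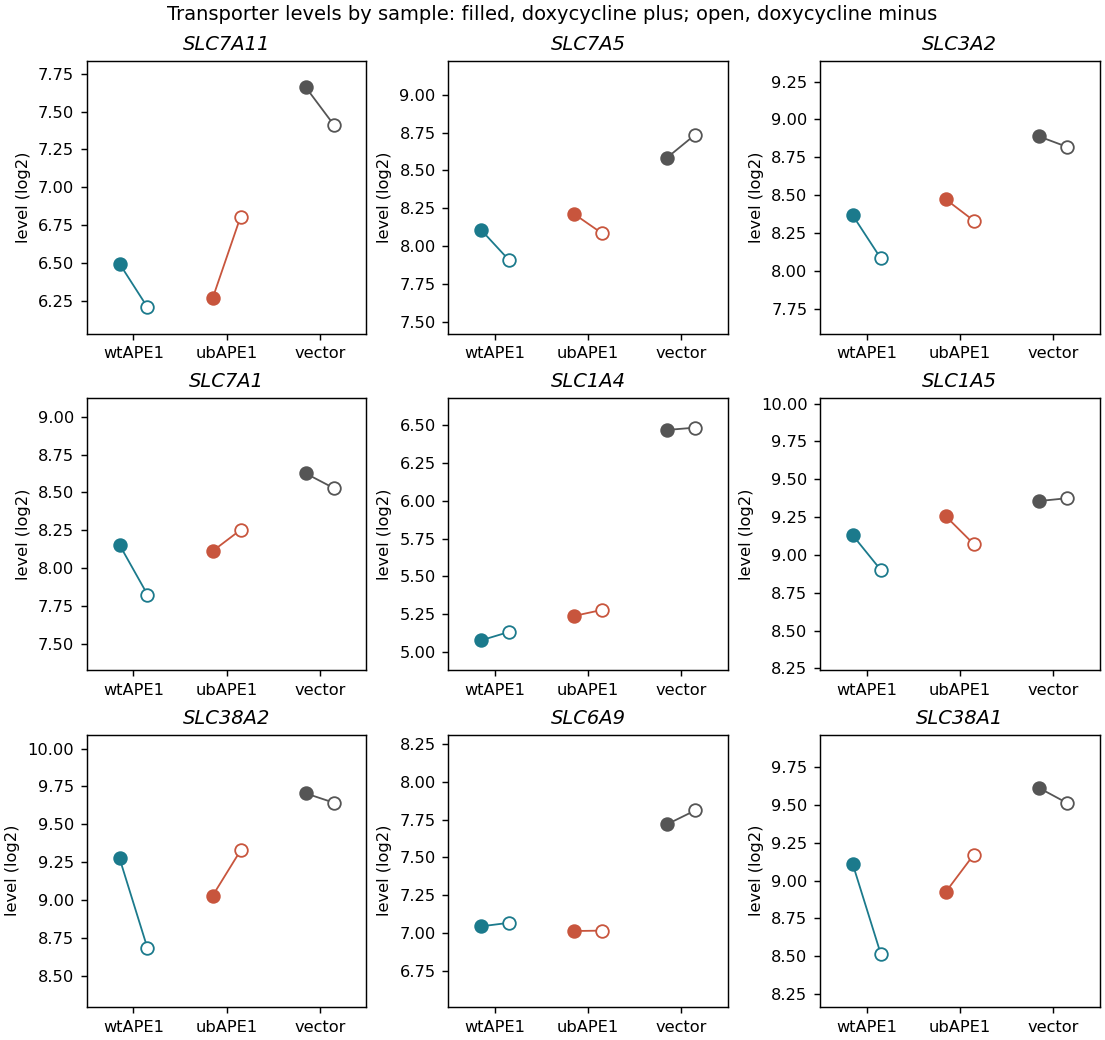
Level of each transporter (log2, vertical axes of equal span) in the 3 lines, with filled points for doxycycline plus and open points for doxycycline minus, each the authors' mean of 3 replicates. For all 9 genes the 4 APE1-line samples lie below the 2 vector samples as deposited. Taking each line alone, both of its samples did so in 47.9% of all rows for wtAPE1 and 28% for ubAPE1. Relative to the column medians, SLC1A5 overlapped in the ubAPE1 line.

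The heteromeric exchangers come first. SLC7A11, the cystine and glutamate exchanger that supplies cysteine for glutathione, had 6.49 log2 with doxycycline and 6.21 without in wtAPE1 cells, 6.27 and 6.81 in ubAPE1 cells, and 7.66 and 7.41 in vector cells. The order from low to high was wtAPE1 without, ubAPE1 with, wtAPE1 with, ubAPE1 without, vector without and vector with doxycycline. The vector samples stood apart at the top, while the 4 APE1-line samples mixed. SLC7A11 fell by 1.04 ± 0.22 log2 (SE), or 2.05 times, in wtAPE1 against vector cells (limma adjusted p = 0.0329). In the ubAPE1 line the difference was -0.92 ± 0.22 log2, or 1.90 times lower (limma adjusted p = 0.0804). Both differences share 1 SE but were not equally even. Relative to the column medians, the wtAPE1 difference was -1.06 with and -0.96 without doxycycline, and the ubAPE1 difference -1.23 and -0.55. The ubAPE1 value passed when each column was first centred on its median (limma adjusted p = 4.75e-05). The difference was then -0.89 log2, no wider than before, so the lower p came from the spread in the fit and not the size. After centring, p followed size among the 9 genes, with little weight on a row's own spread. In wtAPE1 cells SLC38A1 passed at -0.57 log2 (limma adjusted p = 0.0291) and SLC6A9 at -0.53 (limma adjusted p = 0.0491). Their residual SDs before centring were 0.30 and 0.03 log2. The lower p for SLC7A11 thus does not show that its difference was even over both states. Centring raised the count of genes called lower to 4 of 9 in wtAPE1 cells, against 4.03% of all rows, and to 3 of 9 in ubAPE1 cells, against 3.55%.

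SLC3A2, the shared heavy chain, had 8.37 log2 with doxycycline and 8.08 without in wtAPE1 cells, 8.47 and 8.33 in ubAPE1 cells, and 8.89 and 8.82 in vector cells. Its difference from the vector line was -0.48 ± 0.15 log2 in wtAPE1 cells (limma adjusted p = 0.0830) and -0.38 ± 0.15 in ubAPE1 cells (limma adjusted p = 0.264). SLC7A5 (LAT1), which takes up leucine and other large neutral amino acids in exchange for glutamine, had 8.11 and 7.91 log2 with and without doxycycline in wtAPE1 cells, 8.21 and 8.08 in ubAPE1 cells, and 8.59 and 8.74 in vector cells. The heavy chain and this light chain were thus lower by similar amounts, with SLC7A5 at -0.50 ± 0.16 log2 in wtAPE1 cells (limma adjusted p = 0.0894) and -0.44 ± 0.16 in ubAPE1 cells (limma adjusted p = 0.221). Neither gene passed in either line, and the groups did not overlap for either gene. SLC7A5 has pseudogene copies, and whether they add to its row was not tested.

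SLC7A1 (CAT1), the main uptake route for arginine and lysine in many cells, had 8.15 and 7.83 log2 with and without doxycycline in wtAPE1 cells, 8.11 and 8.25 in ubAPE1 cells, and 8.63 and 8.53 in vector cells. All 4 APE1-line samples lay below both vector samples. The difference was -0.44 ± 0.17 log2 in wtAPE1 cells (limma adjusted p = 0.134) and -0.32 ± 0.17 in ubAPE1 cells (limma adjusted p = 0.419), which did not pass.

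The neutral amino acid exchangers of the SLC1 family differed from each other. SLC1A4 (ASCT1), which exchanges alanine, serine and cysteine and also carries proline, had 5.08 log2 with doxycycline and 5.13 without in wtAPE1 cells, 5.24 and 5.28 in ubAPE1 cells, and 6.47 and 6.48 in vector cells. Values with and without doxycycline were nearly equal within every line, and the vector samples stood well above the other 4. SLC1A4 was lower by -1.22 ± 0.15 log2, or 2.33 times, in wtAPE1 cells (limma adjusted p = 0.00356) and by -1.14 ± 0.15 log2, or 2.20 times, in ubAPE1 cells (limma adjusted p = 0.00646). Counted from the lowest of the 11619 rows, it ranked 58 in wtAPE1 cells and 69 in ubAPE1 cells. Its row has a mean of 5.61 log2, near the lower filter, so a stricter filter, at the median of row means, drops it from the test.

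SLC1A5 (ASCT2), a main route of glutamine uptake in proliferating cells, had 9.13 and 8.90 log2 with and without doxycycline in wtAPE1 cells, 9.26 and 9.07 in ubAPE1 cells, and 9.36 and 9.38 in vector cells on its brighter row. The values came closer to the vector line than for any other gene of the set, with differences of -0.20 ± 0.15 log2 in wtAPE1 cells (limma adjusted p = 0.295) and -0.13 ± 0.15 in ubAPE1 cells (limma adjusted p = 0.72). Its dimmer row had 7.16 and 7.11 log2 in wtAPE1 cells, 7.26 and 6.90 in ubAPE1 cells, and 6.93 and 7.49 in vector cells. On that row the groups overlapped and the wtAPE1 difference had the opposite sign, at 0.08 log2, against -0.05 in ubAPE1 cells.

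SLC38A1 (SNAT1) and SLC38A2 (SNAT2), sodium-coupled carriers that load cells with glutamine, alanine and other small neutral amino acids, are encoded side by side on chromosome 12, with 0 protein-coding genes between them in the RefSeq table. SLC38A1 had 9.11 and 8.52 log2 with and without doxycycline in wtAPE1 cells, 8.93 and 9.17 in ubAPE1 cells, and 9.61 and 9.51 in vector cells. SLC38A2, the member of the pair that amino acid shortage induces through ATF4, had 9.28 and 8.68 log2 with and without doxycycline in wtAPE1 cells, 9.03 and 9.33 in ubAPE1 cells, and 9.70 and 9.64 in vector cells. The 2 rows ran in parallel, since SLC38A2 minus SLC38A1 stayed between 0.09 and 0.17 log2 in all 6 samples. The genes are paralogues, and whether their probes share signal was not tested. The SLC38A1 difference was -0.60 ± 0.21 log2 in wtAPE1 cells (limma adjusted p = 0.122) and -0.44 ± 0.21 in ubAPE1 cells (limma adjusted p = 0.385). The SLC38A2 difference was -0.55 ± 0.21 log2 in wtAPE1 cells (limma adjusted p = 0.160) and -0.42 ± 0.21 in ubAPE1 cells (limma adjusted p = 0.429). Neither passed, and the SLC38A1 value in wtAPE1 cells passed with the columns centred (limma adjusted p = 0.0291).

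SLC6A9 (GLYT1), the sodium- and chloride-coupled glycine transporter, had 7.04 and 7.07 log2 with and without doxycycline in wtAPE1 cells, 7.01 and 7.02 in ubAPE1 cells, and 7.72 and 7.81 in vector cells. Like SLC1A4 it was nearly flat within each line and stepped between the vector line and the others. The difference was -0.56 ± 0.15 log2 in wtAPE1 cells (limma adjusted p = 0.0557) and -0.67 ± 0.15 in ubAPE1 cells, or 1.59 times lower (limma adjusted p = 0.0563). With the columns centred first it passed in both (limma adjusted p = 0.0491 in wtAPE1 cells and 0.0114 in ubAPE1 cells).

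**Figure D2:**
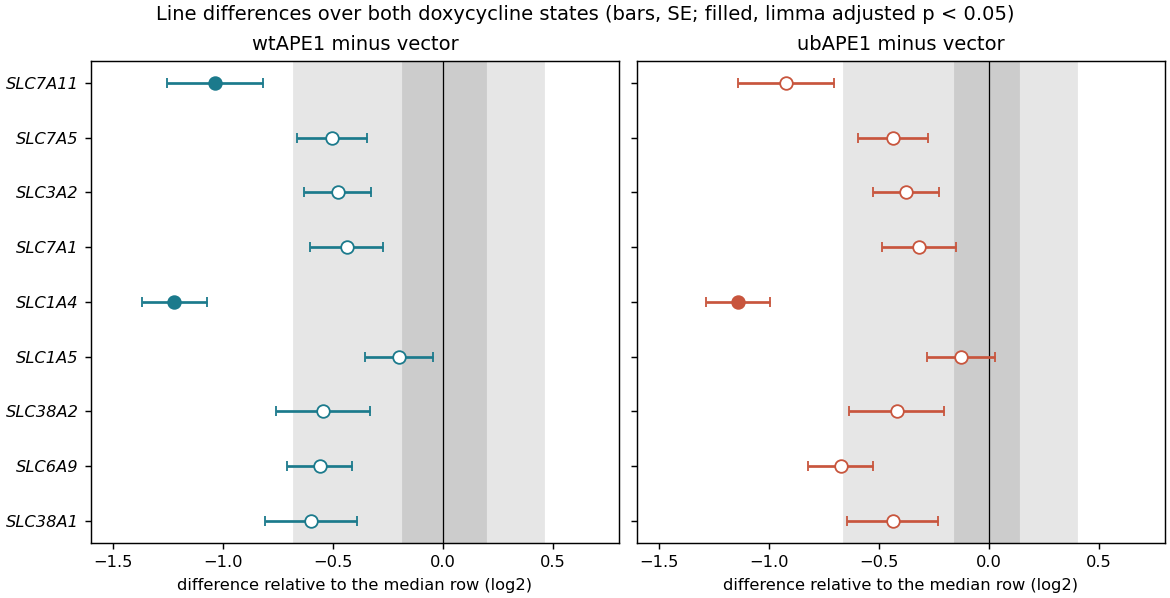
Difference from the vector line over both doxycycline states (log2, relative to the median row) for each transporter, with the wtAPE1 line at the left and the ubAPE1 line at the right. Points are limma estimates with SE bars, filled where the adjusted p is under 0.05, and the light and dark bands hold 95% and 50% of all 11619 rows. SLC1A4 and SLC7A11 lie outside the light band in both panels, and SLC6A9 does in the ubAPE1 panel.

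The difference from the vector line was also taken within each doxycycline state, as a value without a test. With doxycycline, it lay between -1.29 and -0.12 log2 over the 9 genes in wtAPE1 cells and between -1.23 and 0.06 in ubAPE1 cells. Without doxycycline, it lay between -1.10 and -0.22 in wtAPE1 cells and between -1.15 and -0.22 in ubAPE1 cells. All 9 genes were thus below the vector line in both APE1 lines before induction, and after it all were except SLC1A5 in ubAPE1 cells, at 0.06. SLC7A11 in ubAPE1 cells had the widest gap between the states, at -1.23 with and -0.55 without doxycycline.

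The 2 APE1 lines were then set against each other. The ubAPE1 minus wtAPE1 difference lay between -0.10 log2 (SLC6A9) and 0.17 (SLC38A1), with SEs of 0.15 to 0.22 and a median of 0.12. In limma 0 of 9 genes passed, as did 0% of all rows called higher and 0% called lower. No gene of the set had an unadjusted p under 0.05, and 47 of all rows did. The SEs are of the size of the differences, so shifts this small were not detectable with these samples.

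The response to doxycycline (with minus without) was described within each line by size, since each is 1 column against 1. At a size of 1.5-fold, 0 of 9 genes were higher and 0 lower in any line. The share of all rows that were higher was 0.508% in wtAPE1 cells, 1.21% in ubAPE1 cells and 0.344% in vector cells, and the share that were lower was 0.422%, 3.81% and 0.602% in the same order. The median over the 9 genes was 0.21 log2 in wtAPE1 cells, 0.09 in ubAPE1 cells and 0.11 in vector cells. As an effect common to the 3 lines, the response lay between -0.01 log2 (SLC6A9) and 0.19 (SLC3A2), with SEs of 0.12 to 0.18. In limma 0 of 9 genes passed, 0% of all rows were called higher and 0% lower, no gene of the set had an unadjusted p under 0.05, and 194 rows did.

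The widest responses belonged to the SLC38 pair and SLC7A11. In the wtAPE1 line the response was 0.52 log2 for SLC38A1 and also 0.52 for SLC38A2, or 1.43-fold each, and as deposited both came to 0.59 log2, just past 1.5-fold, as 1.06% of all rows did. In the ubAPE1 line the same genes were at -0.12 and -0.17, and in vector cells at 0.14 and 0.11. SLC7A11, by contrast, was highest in vector cells, with responses of 0.21 log2 in wtAPE1 cells, -0.41 in ubAPE1 cells and 0.29 in vector cells. SLC7A1 showed 0.25, -0.01 and 0.14 log2 in the same order. SLC3A2 was above 0 throughout, at 0.21, 0.27 and 0.11, and so was SLC1A5, at 0.15, 0.31 and 0.03. SLC7A5 had 0.13, 0.26 and -0.11 log2. For SLC1A4 (-0.13, 0.09 and 0.03) and SLC6A9 (-0.10, 0.13 and -0.05), the genes that stepped most evenly between lines, the responses stayed within 0.13 log2 of 0. On its dimmer row SLC1A5 had -0.03, 0.50 and -0.51 log2, so its rows disagree on the response in the wtAPE1 and vector lines.

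**Figure D3:**
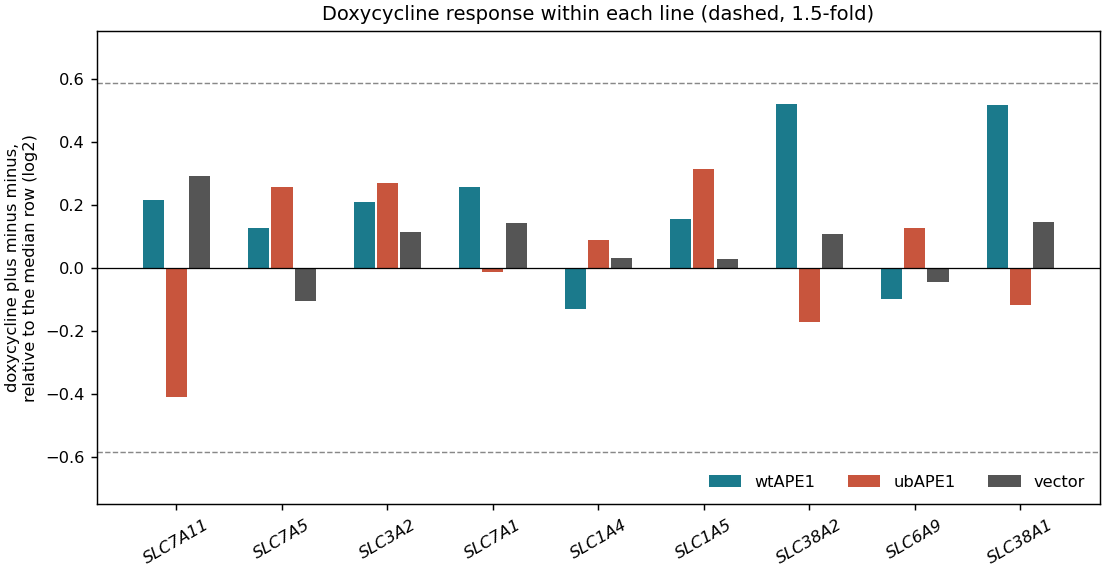
Doxycycline response (with minus without, log2, relative to the median row) of each transporter in the wtAPE1, ubAPE1 and vector lines, 1 column against 1 column per bar. No bar reaches the dashed lines at 1.5-fold, and SLC7A11 and the SLC38 pair point down in ubAPE1 cells and up in the others.

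The responses were compared between lines without a test. These differences are relative to their own median row, so they need not equal the differences of the values above. At least 1.5-fold lower in the ubAPE1 than in the vector response was 1 of 9 genes, SLC7A11 at -0.72 log2, against 9.74% of all rows. In the ubAPE1 than in the wtAPE1 response, 3 of 9 were lower, SLC38A2 at -0.68, SLC38A1 at -0.62 and SLC7A11 at -0.61, against 7.66%. None of the 9 was 1.5-fold higher in either comparison, where 3.49% and 4.58% of all rows were. That count uses the brighter SLC1A5 row. The dimmer row, not counted, was higher by 0.98 log2 in the ubAPE1 minus vector response, the widest such difference of the 10 transporter rows, while the brighter row was at 0.26. The wtAPE1 minus vector response lay between -0.16 and 0.42 log2, with 0 of 9 past 1.5-fold either way, against 2.56% of all rows higher and 1.52% lower. The ubAPE1 response moves with gene length. In the bin with the shortest genes its median was 0.11 log2 as deposited, and in the bin with the longest -0.27. Relative to the median row of the same length bin, SLC7A11 in the ubAPE1 minus vector response was at -0.51, so 0 of 9 were past 1.5-fold, against 6.4% of rows with a length. In the ubAPE1 minus wtAPE1 response SLC7A11 was at -0.40, SLC38A1 at -0.41 and SLC38A2 at -0.79, so 1 of 9 was past 1.5-fold, against 5.43%. These bins were chosen after seeing the data.

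**Figure D4:**
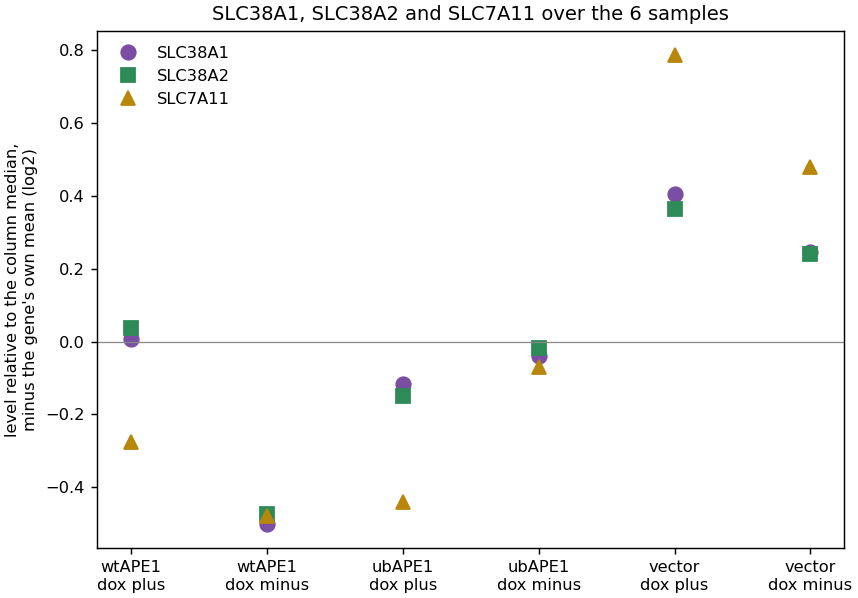
Levels of SLC38A1, SLC38A2 and SLC7A11 in the 6 samples (log2, relative to the column median and to each gene's own mean). The SLC38 genes nearly coincide in all 6 samples, and SLC7A11 spans the widest range.

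Other genes of amino acid transport were centred near the median row, but some of them lay close to the filter. Of 40 further transporter genes listed, 21 were measured above the filter. In either line 0 of 21 passed, where 2.01% of all rows were called lower in wtAPE1 cells and 1.31% in ubAPE1 cells. A count of 0 is thus near the share of all rows. Their median difference was 0.03 log2 in wtAPE1 cells and 0.06 in ubAPE1 cells, with 8 and 7 of 21 below the median row. The lowest was SLC1A1, a glutamate and cysteine transporter, at -0.76 and -0.81 (limma adjusted p = 0.0990 in wtAPE1 cells and 0.139 in ubAPE1 cells). Next by size was SLC38A9, the lysosomal arginine sensor of mTORC1, at -0.38 in wtAPE1 cells, and SLC7A8, the LAT2 light chain, at -0.38 in ubAPE1 cells. The mean level of the 21 genes lay between 6.28 and 6.48 log2 over the samples. Some were near the filter cutoff of 5.03 log2 even in vector cells. Examples are SLC6A18, at 5.17 and 5.23 log2 with and without doxycycline, and SLC6A19, at 5.24 and 5.26. A lower level could hardly show on such rows, so the list medians do not show that other transporters were unchanged. That the described transporters differ from these 21 in general was not tested, since both lists were chosen with results known.

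ATF4-responsive genes outside transport included lower calls. Of 25 measured above the filter, 9 were called lower by limma in wtAPE1 cells, against 2.01% of all rows, and 7 in ubAPE1 cells, against 1.31%, with median differences of -0.38 and -0.40 log2. CHAC1, which degrades glutathione, had -1.30 ± 0.17 log2 in wtAPE1 cells and -1.28 ± 0.17 in ubAPE1 cells (limma adjusted p = 0.0053 and 0.00736). CTH, which makes cysteine from cystathionine, had -1.14 and -1.11, and PSAT1 of serine synthesis had -1.04 in wtAPE1 cells. The secreted glycoprotein STC2 (-0.96 and -1.10), the asparagine synthetase ASNS (-0.94 and -0.93) and the lipoprotein receptor VLDLR (-0.91 and -0.91) were lower in both. So were DDIT4, an inhibitor of mTORC1 (-0.78 and -0.75), and PCK2, the mitochondrial PEP carboxykinase (-0.62 and -0.74). ATF3 (-0.65) was called in wtAPE1 cells only. Below the median row were 20 and 21 of the 25. Among those that did not pass, TRIB3 had -0.11 and -0.22, ATF5 -0.03 and -0.13, and PPP1R15A 0.01 and -0.16. Above the median row in both lay ADM2 (0.38 and 0.32), JDP2 (0.27 and 0.11) and CEBPB (0.18 and 0.19). DDIT3 was below the filter. The ATF4 row itself had 6.76 and 6.62 log2 with and without doxycycline in wtAPE1 cells, 6.77 and 6.70 in ubAPE1 cells, and 6.49 and 6.52 in vector cells. Its difference was 0.33 and 0.31 log2 and did not pass (limma adjusted p = 0.520 and 0.659). ATF4 protein is set mainly by translation, which the arrays do not measure.

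Lists for NRF2 targets, amino acid sensing, and glutamine and glutamate enzymes had 0 members past the threshold. Among all rows, 2.01% were called lower in wtAPE1 cells and 1.31% in ubAPE1 cells, so 0 in lists this short is near that share. Of 11 NRF2 targets the median difference was -0.12 log2 in wtAPE1 cells and -0.10 in ubAPE1 cells, with the widest values at -0.70 and -0.65 for ME1, an NADPH-making enzyme, then 0.53 in wtAPE1 cells for SRXN1, which reduces peroxiredoxins, and 0.59 in ubAPE1 cells for HMOX1, which degrades heme. GCLM and GCLC, the subunits of glutamate-cysteine ligase, which use the cysteine that SLC7A11 supplies, were at -0.30 and -0.26 for GCLM and at -0.35 and -0.28 for GCLC. Of 18 genes of amino acid sensing by mTORC1 the medians were -0.08 and -0.09, with RRAGD, a Rag GTPase, at -0.48 and -0.50, the kinase gene MTOR at -0.35 in wtAPE1 cells and MLST8, a subunit of its complexes, at -0.35 in ubAPE1 cells. Of 6 glutamine and glutamate enzymes they were 0.01 and 0.09, with the alanine aminotransferase gene GPT at 0.40 and 0.29, and the aspartate aminotransferase genes GOT2 at -0.21 in wtAPE1 cells and GOT1 at 0.14 in ubAPE1 cells.

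**Figure D5:**
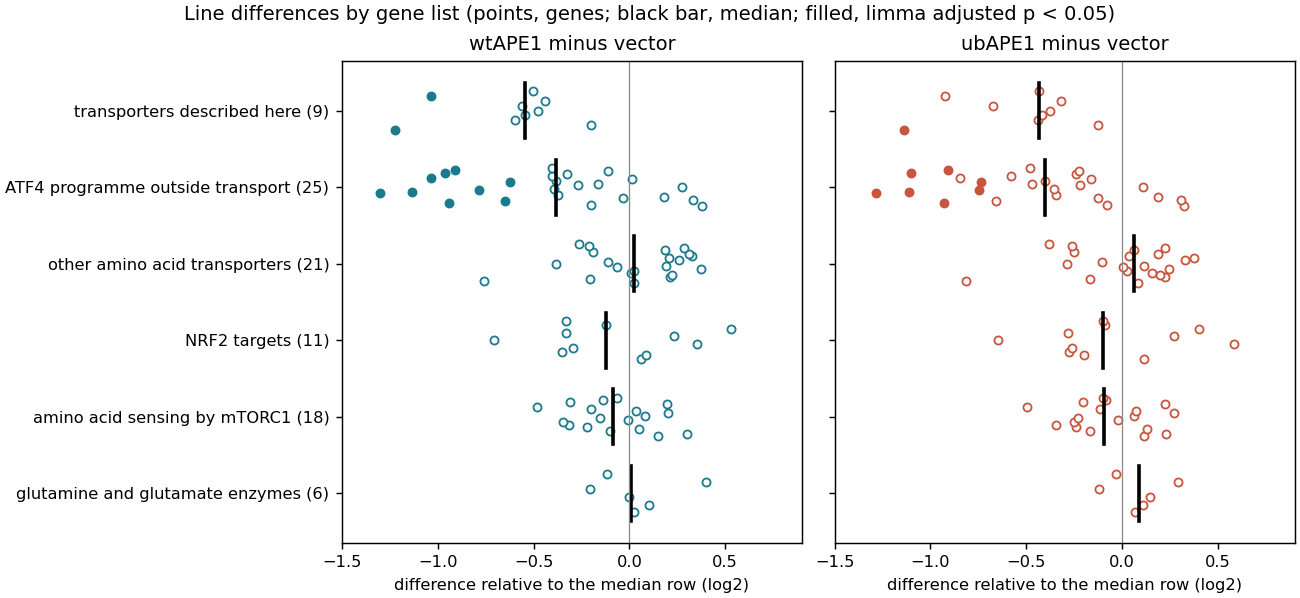
Difference from the vector line (log2, relative to the median row) for the transporters and 5 further gene lists, with the number of genes measured in brackets, the wtAPE1 line at the left and the ubAPE1 line at the right. Points are genes, filled where the limma adjusted p is under 0.05, and black bars are list medians, which lie at or below -0.38 for the transporters and the ATF4 programme and between -0.12 and 0.09 for the others.

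The rows with profiles most like the transporters were found by distance over the 6 samples, among 9643 other rows with 1 symbol, each profile taken relative to the column medians and to its own mean. Closest to the mean of the 8 ATF4-responsive transporters were CARS1, the cytosolic cysteinyl-tRNA synthetase, at a distance of 0.11 log2, then TMTC1, GOLPH3, BCL2 and GDE1, at up to 0.13. Among the transporters themselves, SLC7A5 (0.23), SLC3A2 (0.24) and SLC7A1 (0.27) lay nearest to that mean, and SLC1A4 (0.72) farthest. Closest to SLC7A11 were AIG1 (0.11), the drug exporter gene ABCB1 (0.12), the receptor kinase gene MET (0.13), OXCT1 (0.14) and SDHA (0.17). Its nearest transporter was SLC1A4, at 0.52. These distances rest on 6 columns that share lines and treatment, and describe them only.

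Some markers of cell identity also differed between the lines. Of 9 epithelial and kidney tubule markers above the filter, KRT8 was between 10.22 and 10.54 log2 in all 6 samples, while limma called 3 lower in wtAPE1 cells, against 2.01% of all rows, and 2 in ubAPE1 cells, against 1.31%. These were EPCAM (-3.01 and -2.98 log2), KRT19 (-0.85 and -0.89) and, in wtAPE1 cells, LRP2 (-0.77). EPCAM had 4.90 and 5.12 log2 with and without doxycycline in wtAPE1 cells, 4.91 and 5.30 in ubAPE1 cells, and 8.30 and 8.03 in vector cells. The mean level of that list was 6.38 and 6.38 log2 in the wtAPE1 samples, 6.41 and 6.33 in the ubAPE1 samples, and 6.98 and 6.91 in the vector samples. EPCAM carried much of that gap, since without it the means were 6.56 and 6.54 log2 in the wtAPE1 samples, 6.59 and 6.45 in the ubAPE1 samples, and 6.81 and 6.77 in the vector samples. The list's median difference was 0.08 log2 in wtAPE1 cells and -0.02 in ubAPE1 cells, with 4 and 5 of 9 below the median row, and PAX2, PAX8, CLDN3 and AQP1 lay above it in both. CDH1 and CLDN4 were below the filter. The 4 fibroblast and smooth muscle markers above the filter averaged between 5.54 and 5.74 log2 over the samples, the 2 neuronal markers between 6.82 and 7.36 and the 2 blood cell markers between 5.84 and 6.29. NEFL, a neuronal marker, was lower in wtAPE1 cells (-0.67 log2, limma adjusted p = 0.0412), while SYP, the other neuronal marker, was at 0.26 in wtAPE1 and 0.59 in ubAPE1 cells and did not pass. The part of these differences in the transporter values was not tested.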

How the data were processed

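The table holds log2 levels per array row (transcript cluster), deposited as 6 columns. Per the labels, the authors averaged 3 biological replicates into each column. Per the submitters' processing notes the build was hg 18, while how probes were summarised, corrected and normalized is not given in the sources used. That the unit is log2 was inferred from the range of the deposited values. Of 15492 rows, 12616 have 1 symbol in the platform's annotation, 2031 several and 845 none, and genes were named from 1-symbol rows only. Of these, 12602 were found in the RefSeq gene table (GRCh38.p14), and 0 symbols changed.

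Line differences and the common doxycycline effect were fitted with limma 3.58.1 (R 4.3.3; lmFit, eBayes; prior degrees of freedom 6.28) on the values as deposited. Printed differences are relative to the median kept row and adjusted p-values belong to the deposited differences. Alternatives were other filters, normalizations, model terms, rows and lines left out. In a check on simulated data the fit returned the sizes put in but missed changed rows, so a gene that did not pass is not shown to be unchanged. The median residual SD was 0.15 log2. A gene's value is its row with the highest mean. All rows of the listed genes are accounted for. From further lists, genes past the threshold were named by size (up to 6 per list and direction), otherwise the 2 widest. More genes were named after their values were seen. These were ATF4, ATF3, ATF5, TRIB3, PPP1R15A, ADM2, JDP2, CEBPB, DDIT3, GCLM, GCLC, PCK2, KRT8, PAX2, PAX8, CLDN3 and AQP1. The members and lists were chosen with earlier results of these data known. The number of columns limits the precision.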

Additional observations from a re-analysis of the deposited data

Results flagged for a closer look

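The doxycycline responses of 3 transporters went in opposite directions in 2 lines and were at least 1.5-fold apart. With 1 averaged column per group the difference was not tested. For SLC7A11 the ubAPE1 response differed by -0.72 log2 from the vector response and by -0.61 from the wtAPE1 response. The ubAPE1 minus wtAPE1 difference in response was -0.62 for SLC38A1 and -0.68 for SLC38A2. Against 9.74% of all rows that were this much lower in the ubAPE1 minus vector response and 7.66% in the ubAPE1 minus wtAPE1 response, such differences are not rare in the table. Within bins of genomic length these 4 values were -0.51, -0.40, -0.41 and -0.79 in the order given, and SLC38A1 was then at 0.05 in the ubAPE1 line and no longer opposite in sign.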

How the results depend on the processing

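Over the alternatives, the SLC1A4 difference kept its call wherever the gene was tested, with limma adjusted p from 3.52e-09 to 0.00505 in the wtAPE1 line and from 8.03e-08 to 0.00881 in the ubAPE1 line. SLC7A11 kept it in the wtAPE1 line (1.57e-06 to 0.0469). The lowest of these p-values came with the columns centred. There the differences were no wider, and p followed size with little weight on a row's own spread. Of 232 values of a transporter against the vector line under the alternatives, 231 were below 0, leaving out the dimmer SLC1A5 row, and the exception was SLC1A5 with doxycycline in ubAPE1 cells (0.06 log2). The number of transporters called lower in the wtAPE1 and ubAPE1 lines was 2 and 1. It became 1 and 0 with a filter at the 50th percentile, which leaves SLC1A4 out (1.36% and 0.71% of all rows). It became 4 and 3 with the columns centred (4.03% and 3.55% of all rows), and 4 and 2 without a doxycycline term (3.25% and 2.04%). In the ubAPE1 line it became 3 after quantile normalization (2.89%) and 3 without the wtAPE1 line (2.63%). In the wtAPE1 line it became 7 without the ubAPE1 line (8.08%), adding SLC7A5, SLC3A2, SLC7A1, SLC38A1 and SLC6A9. As deposited, 2 transporters passed 1.5-fold in the wtAPE1 response. With a 2-fold rule 0 passed in the ubAPE1 minus vector response and 0 in the ubAPE1 minus wtAPE1 response. The share of all rows past 2-fold was not taken, so nothing is read from these counts. Length bins, chosen after seeing the data, gave 0 and 1, against 6.4% and 5.43% of rows that were lower. The dimmer SLC1A5 row, also chosen then, gave 2 in the ubAPE1 minus vector response. These were SLC7A11 lower (-0.72 log2, against 9.74% of all rows) and SLC1A5 higher (0.98, against 3.49%). Of the single-gene values, 771 stayed, 91 moved and 16 newly passed. A tested value counted as staying where its sign and call held, whatever its size. Untested values, and tested ones that changed sign without a call, stayed if they moved by less than the gene's residual SD. The tally includes the dimmer SLC1A5 row, set against the SD of the brighter row. No paired analysis was possible because each group has 1 column and the labels give no replicate numbers.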
